A study of Homo sapiens with 6 samples.

Results

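The genes described here lie in a single stretch at the far end of the long arm of human chromosome 19. This run goes from ZNF784 to CENPBD2P in the order of gene starts, and most of its members are zinc finger genes by symbol. The run holds 185 genes in the RefSeq table, 86 of them zinc finger genes by symbol, and 93 had a probe set annotated to a single symbol. Each gene was represented by its brightest such probe set. In all, 41 genes reached a mean of log2 5 over the 6 arrays and are the members, out of 12317 genes tested across the genome. Of these 41, 34 were zinc finger genes by symbol (33 protein coding genes and ZNF8-DT, the RNA transcribed away from ZNF8) and 7 were other genes.

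The arrays came from HCA-7, a human colorectal cancer line long kept in culture, which forms cystic or spiky colonies in type 1 collagen gels. A clone of each shape, labelled cc3 for cystic and sc1 for spiky, was grown in collagen and sampled after 5, 10 or 15 days. Each sample was read on 1 Affymetrix U133 Plus 2.0 array, which gave 3 arrays for each shape. The labels name no added agent or genetic change, and each shape is 1 clone, so shape and clone cannot be told apart. Between the clones, the days of a clone serve as its replicates. Where a day is set against another, each day has 1 array per clone, and the cystic and spiky clones serve as the replicates. Separate cultures are not stated in the labels, so p-values cover only the variation among these 6 arrays, part of which may be technical.

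C2H2 zinc finger proteins read DNA through rows of finger repeats, and tandem duplication has left their genes in dense clusters on chromosome 19. Many of them carry a KRAB box, which recruits the corepressor TRIM28 (also called KAP1). TRIM28 in turn brings in the histone methyltransferase SETDB1 and HP1 proteins, which pack the bound DNA, often a transposable element, into silent chromatin. TRIM28 is itself a gene of this run.

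The run was selected on the spiky minus cystic difference in these arrays, and its members were chosen by their mean signal. The difference between the clones is therefore given as a description, and nothing is read from the limma counts given for it. Only changes over culture time, which the choice did not use, are read as tests. The values are gene signals on the log2 scale after RMA. A lower value may come from fewer cells with the transcript or from less of it per cell, which cannot be told apart in bulk RNA.

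ZNF544, a KRAB zinc finger gene, showed the widest gap between the clones. Its signal was 9.0, 9.13 and 8.24 in the cystic clone and 6.39, 5.56 and 5.32 in the spiky clone at day 5, 10 and 15. The clones did not overlap, and the lowest cystic array lay well above the highest spiky one. The means were 8.79 ± 0.48 and 5.76 ± 0.56 (SD, n = 3), a log2 difference of -3.03 or 8.19-fold lower in the spiky clone. The gap was -2.61, -3.56 and -2.92 on the 3 days. ZNF544 had the lowest difference of the 392 zinc finger genes tested, ahead of ZNF600 (-2.63), which lies on chromosome 19 outside the run, and the eighth lowest of all tested genes. The other bright probe sets of ZNF544 had the same sign. One stood at 6.54 in the cystic clone and 3.97 in the spiky clone (difference -2.57), the other at 5.84 and 4.75 (difference -1.09). Both lay under log2 5 on all 3 spiky arrays and reached the level through the cystic clone alone. Their sign is therefore no separate support, and their sizes are not set against that of the chosen probe set.

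**Figure D1:**
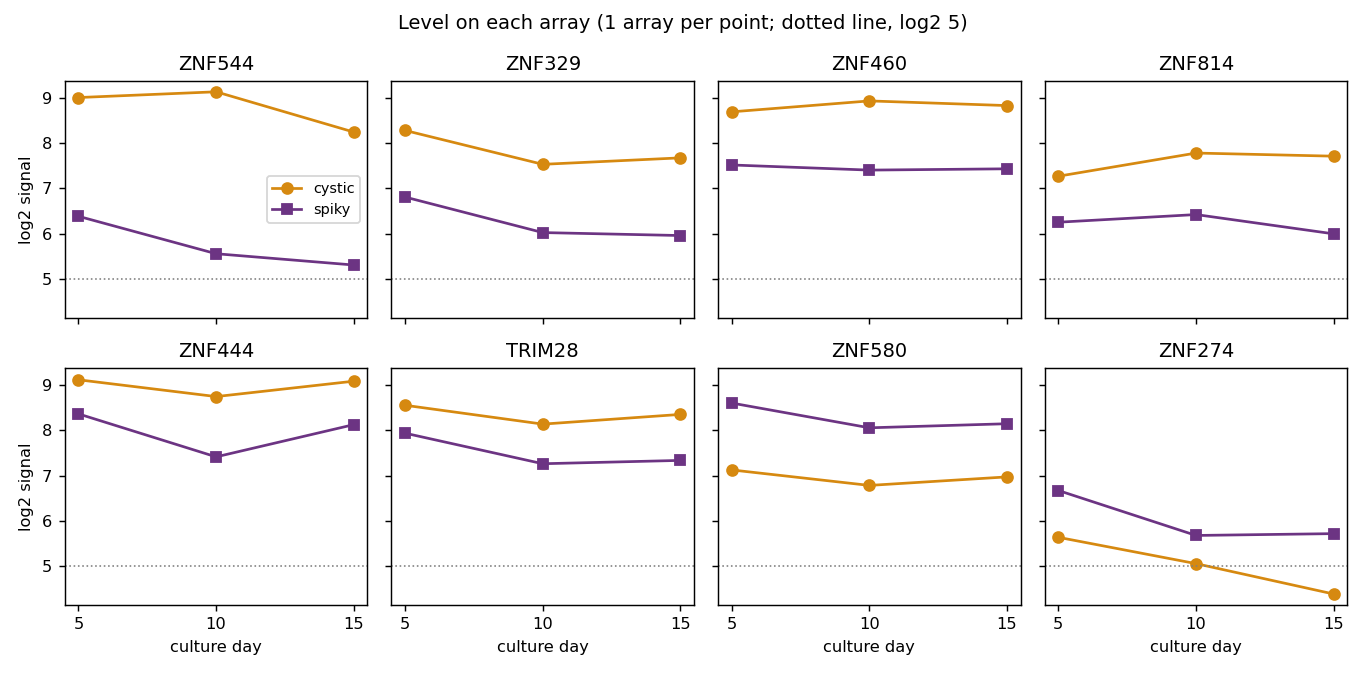
Log2 signal (y axis) of 8 run genes at culture day 5, 10 and 15 (x axis) in the cystic (circles) and spiky (squares) clone, 1 array per point, with a dotted line at log2 5. In ZNF544, ZNF329, ZNF460, ZNF814, ZNF444 and TRIM28 the spiky points lie below the cystic points at each day, and in ZNF580 and ZNF274 above them.

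The start regions of several members are shown to set ZNF544 beside the members with the next lowest and the highest differences. Each is 250 bases before to 50 bases after the annotated start, from the RefSeq-based promoter table (build GRCh38.p14), which held 37 of the 41 members. ZNF544 is at chr19:58228664-58228963, plus strand, and its tested neighbours on either side of it in the list are ZNF274 (chr19:58182811-58183110, plus strand), which was higher in the spiky clone, and ZNF8-DT. ZNF329 (chr19:58150740-58151039, minus strand) and ZNF460 (chr19:57279732-57280031, plus strand) had the lowest differences of the run after ZNF544, and ZNF580 (chr19:55640752-55641051, plus strand) had the highest. Capitals mark CCGGAAG, a core that ETS family factors bind, or its reverse complement CTTCCGG.
ZNF544: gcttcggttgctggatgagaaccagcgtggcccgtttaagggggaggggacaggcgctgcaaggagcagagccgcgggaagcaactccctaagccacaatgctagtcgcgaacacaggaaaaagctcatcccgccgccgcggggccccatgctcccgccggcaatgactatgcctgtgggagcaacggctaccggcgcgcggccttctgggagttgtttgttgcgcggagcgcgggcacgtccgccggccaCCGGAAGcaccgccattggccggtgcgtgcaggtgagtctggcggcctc
ZNF329: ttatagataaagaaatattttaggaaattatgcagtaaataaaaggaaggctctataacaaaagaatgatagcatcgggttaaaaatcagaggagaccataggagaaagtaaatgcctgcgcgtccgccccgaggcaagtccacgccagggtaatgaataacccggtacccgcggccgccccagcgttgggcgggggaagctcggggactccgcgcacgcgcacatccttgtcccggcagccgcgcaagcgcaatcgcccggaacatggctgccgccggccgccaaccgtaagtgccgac
ZNF460: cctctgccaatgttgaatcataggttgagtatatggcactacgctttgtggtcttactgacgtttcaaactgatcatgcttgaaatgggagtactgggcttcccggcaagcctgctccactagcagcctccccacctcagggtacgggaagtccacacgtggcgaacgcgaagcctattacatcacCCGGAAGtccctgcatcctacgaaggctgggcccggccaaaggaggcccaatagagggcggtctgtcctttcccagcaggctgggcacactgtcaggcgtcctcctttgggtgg
ZNF274: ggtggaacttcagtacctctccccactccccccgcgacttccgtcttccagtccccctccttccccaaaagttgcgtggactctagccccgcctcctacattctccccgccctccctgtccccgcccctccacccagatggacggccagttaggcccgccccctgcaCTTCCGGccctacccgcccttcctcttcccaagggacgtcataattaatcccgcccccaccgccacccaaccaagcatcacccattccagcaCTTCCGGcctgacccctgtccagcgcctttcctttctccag
ZNF580: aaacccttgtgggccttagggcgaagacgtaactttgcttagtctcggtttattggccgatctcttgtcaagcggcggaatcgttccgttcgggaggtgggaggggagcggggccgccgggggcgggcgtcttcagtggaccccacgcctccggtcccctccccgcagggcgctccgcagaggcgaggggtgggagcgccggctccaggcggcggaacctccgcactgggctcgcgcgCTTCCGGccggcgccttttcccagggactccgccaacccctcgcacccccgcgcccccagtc
The ZNF329 window holds no match to these letters. Matches are a description of sequence and not evidence of binding.

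The motif shares were compared without a test. Among 6 motifs searched on both strands, the ETS core showed the widest gap in share between member promoters and those of tested genes. It was present in 22 of the 37 member promoters (59.5%), against 10.3% of 35114 promoters of the same length and 19% of the promoters of tested genes. Zinc finger genes outside the run held it in 37.7% of 302 promoters, and the run genes below log2 5 in 39.0% of 41. Members with the motif had a median difference between the clones of -0.66, from -3.03 to 1.30 (n = 22), and members without it -0.48, from -1.56 to 0.31 (n = 15), so both sets spanned high and low values. The GC box GGGCGG was found in 73.0% of member promoters and 69.7% of those of tested genes. TATAAA was found in 2.70% and 5.86%, the palindromic NRF1 site in 2.70% and 2.30%, the YY1 site in 0% and 2.78%, and the cyclic AMP response element TGACGTCA in 0% and 3.33%. The GC box can overlap other GC-rich letters, and none of these motifs contains another. Member promoters held a median of 23 CpG dinucleotides, those of tested genes 26. Across the 37 members the CpG count and the difference between the clones had a Pearson r of 0.23 and a Spearman rho of 0.40, a description over genes that share the same arrays.

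The zinc finger genes of the run with the next lowest differences were lower in the spiky clone at each day. ZNF329 was at 8.28, 7.53 and 7.67 in the cystic clone and 6.81, 6.03 and 5.97 in the spiky clone at day 5, 10 and 15 (difference -1.56, 2.95-fold). ZNF460, a KRAB zinc finger gene, was at 8.69, 8.93 and 8.82 against 7.52, 7.40 and 7.43 (difference -1.36, 2.57-fold). The clones did not overlap in either gene, and both other bright probe sets of ZNF460 gave a like gap, -1.40 and -1.18.

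ZNF814 was at 7.27, 7.78 and 7.71 in the cystic clone and 6.26, 6.43 and 6.0 in the spiky clone (difference -1.36). ZNF587B stood at 8.08, 8.53 and 8.23 against 6.96, 7.45 and 6.44 (difference -1.32). ZNF814, ZNF587B and ZNF587 are closely related KRAB zinc finger genes, their chosen probe sets are of types that can detect related transcripts (_f_at or _x_at), and the split of signal among them is uncertain. Of the 41 chosen probe sets 6 end in _x_at and 1 in _f_at. The other bright probe sets of ZNF814, which are not of these types, were at -1.41, -0.80 and -0.90. The last of these had a spiky mean of 4.87 and reached the level through the cystic clone alone.

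ZNF548 (7.47, 7.45 and 7.29 against 6.35, 5.90 and 6.47) and ZNF551 (7.34, 7.46 and 6.89 against 6.07, 6.54 and 6.0), both KRAB zinc finger genes, had differences of -1.16 and -1.03. ZNF776 was at -0.89 and ZNF264 at -0.94, without overlap of the clones in either. Some zinc finger factors instead carry a SCAN domain, through which they dimerise. ZNF444, one of them, was at 9.11, 8.74 and 9.08 in the cystic clone and 8.36, 7.41 and 8.12 in the spiky clone (difference -1.01, with -0.82 in its other bright probe set). ZSCAN22 was at 6.16, 5.61 and 5.19 against 5.01, 4.02 and 4.33, at least 1.57-fold lower with arrays under log2 5 set to 5. MZF1 was at -0.56 and ZSCAN18 at -0.62, with overlap of the clones in both, and ZSCAN5A was at -0.08.

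ZNF580 and ZNF274 went the other way. ZNF580 was at 7.12, 6.78 and 6.97 in the cystic clone and 8.59, 8.05 and 8.14 in the spiky clone, 2.47-fold higher in the spiky clone (difference 1.30) with no overlap. ZNF274, a KRAB protein known to recruit SETDB1 to the 3' ends of other zinc finger genes, was at 5.64, 5.06 and 4.39 against 6.67, 5.68 and 5.72 (difference 0.99, at least 1.73-fold higher). Its other probe set, with a mean of 4.99 just under the level for inclusion, had a difference of 0.23. ZNF274 lies between ZNF329 and ZNF544, which had the lowest differences of the run. ZNF784 at 0.31, ZNF581 at 0.25, ZNF135 at 0.17 and ZNF835 at 0.03 were the other positive values, with overlap of the clones in all 4. Without either day 10 array ZNF135 was at -0.19 and ZNF835 at -0.08.

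Of the 7 genes that are not zinc finger genes, 5 were lower in the spiky clone at all 3 days. TRIM28 was at 8.55, 8.13 and 8.34 in the cystic clone and 7.93, 7.26 and 7.33 in the spiky clone, with means of 8.34 ± 0.21 and 7.51 ± 0.37 (SD, n = 3), and was 1.78-fold lower (difference -0.83). SLC27A5, a bile acid and fatty acid CoA ligase, was at -0.79 in the chosen and -0.11 in its other bright probe set. CHMP2A, a subunit of the ESCRT-III membrane scission complex, was at 9.33, 9.13 and 9.22 against 8.81, 8.44 and 8.79 (difference -0.55). The pseudogene CENPBD2P was at -0.70. The clones did not overlap in these 4 genes. A1BG-AS1 was at -0.31, EPN1, which encodes the endocytic adaptor epsin, at -0.03 and the splicing factor gene U2AF2 at -0.04. In U2AF2 the 3 other bright probe sets were at 0.30, 0.04 and 0.16, so its sign is not settled.

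Along the chromosome the shift was uneven. The first 9 members, ZNF784 to ZNF835, had a median difference of -0.03, and 5 of them were negative. The 21 members from ZNF264 to ZNF8 had a median of -0.76, from -3.03 to 0.99. All 11 members from ZSCAN22 to CENPBD2P were lower in the spiky clone at all 3 days, within a narrow range of -1.20 to -0.28 and with a median of -0.58. These stretches were chosen after the values were seen. Just outside the run, ZNF579, ZNF524 and ZNF865, which are zinc finger genes too, had differences of 0.07, -0.09 and -0.20. ZNF8 and ZNF8-DT, transcribed in opposite directions from starts 213 bases apart, were at -0.82 and -0.33. ZNF8 was at 7.19, 7.15 and 6.89 in the cystic clone and 6.64, 6.52 and 5.61 in the spiky clone.

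**Figure D2:**
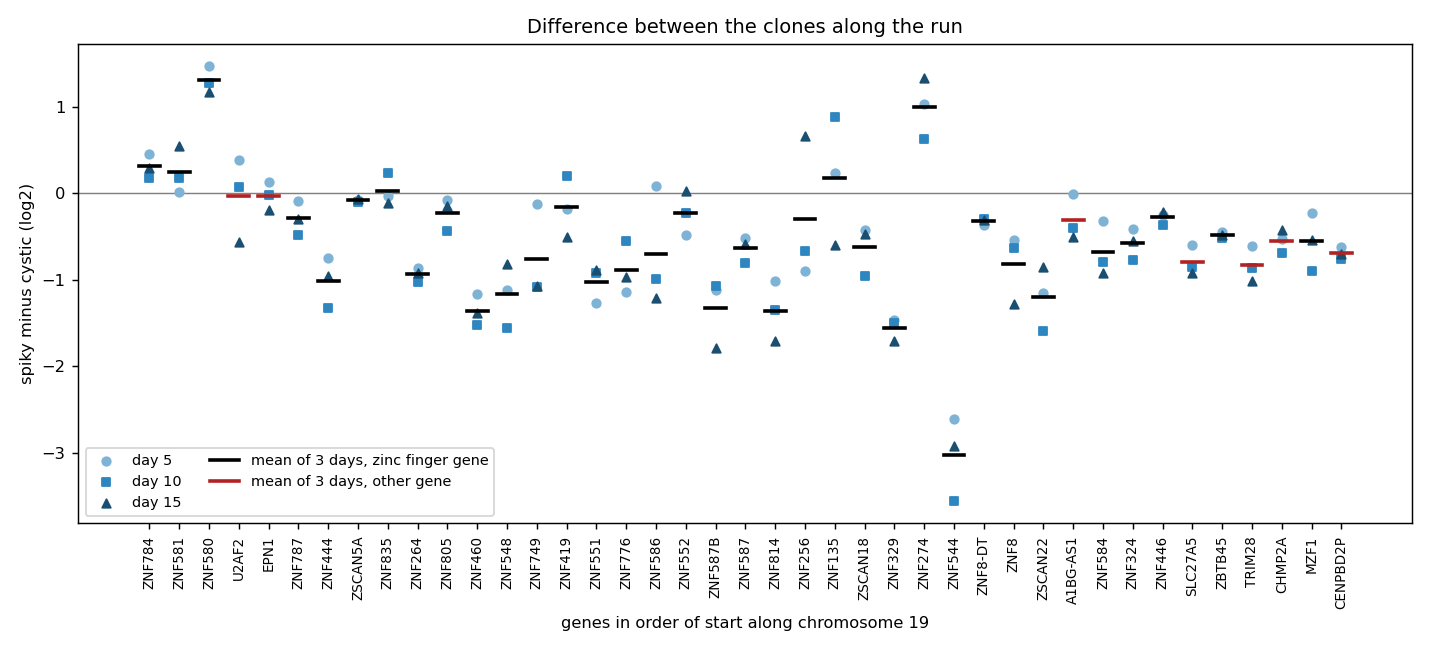
Spiky minus cystic difference in log2 signal (y axis) for the 41 members in the order of their starts along chromosome 19 (x axis). Points are the values at day 5, 10 and 15, and bars the mean of the 3 days, black for zinc finger genes by symbol and red for other genes. ZNF544 stands at -3.03, ZNF580 and ZNF274 at 1.30 and 0.99, and the last 11 genes lie below 0 at each day.

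Over all 41 members the median difference was -0.58, and it was -0.43, -0.69 and -0.56 at day 5, 10 and 15. Over all tested genes it was -0.03. The zinc finger members had a median of -0.60 (n = 34; -0.58 without ZNF544) and the other members -0.55 (n = 7), with interquartile ranges of -0.99 to -0.23 and -0.74 to -0.17. Without probe sets ending in _x_at or _s_at the medians were further apart, -0.71 and -0.25 (n = 25 and 4). A log2 difference of -1 or lower was reached by 9 members (2.04% of all tested genes reached this). All 9 were zinc finger genes, as were 34 of the 41 members. Of the 9, ZSCAN22 reached the level for inclusion through the cystic clone alone (spiky mean 4.45). It is also among the lower members counted below for no overlap and for limma calls. In all, 29 members were lower in the spiky clone at all 3 days (background 25.7%) and 4 were higher (background 19.3%). The arrays of the clones did not overlap in 22 lower members (background 10.1%) and 2 higher ones (background 5.50%). Limma with Benjamini-Hochberg adjustment called 18 members lower (background 7.74%, or 6.52% with arrays centred on their medians) and 2 higher (background 3.65%, or 5.22%). Without the cystic day 5 array or the spiky day 5 array, 11 members were called lower (background 2.91% or 2.96%) and 1 higher (background 1.21% or 1.16%). With culture day left out of the model 2 were called lower (background 0.43%) and 0 higher (background 0.154%). Because this contrast chose the run, nothing is read from these counts.

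Zinc finger genes elsewhere did not show such a median. The 94 on the rest of chromosome 19 were at -0.10 and the 264 on other chromosomes at -0.03, and all 792 tested genes of the rest of chromosome 19 were at -0.04. The run resembled chromosomes 13 and 21, with medians of -0.69 (n = 201) and -0.59 (n = 137), but more of its members lay on the other side, since 85.4% of members were negative against 94.0% and 93.4% there. These runs were all singled out by the same contrast, and their differences were not tested.

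**Figure D3:**
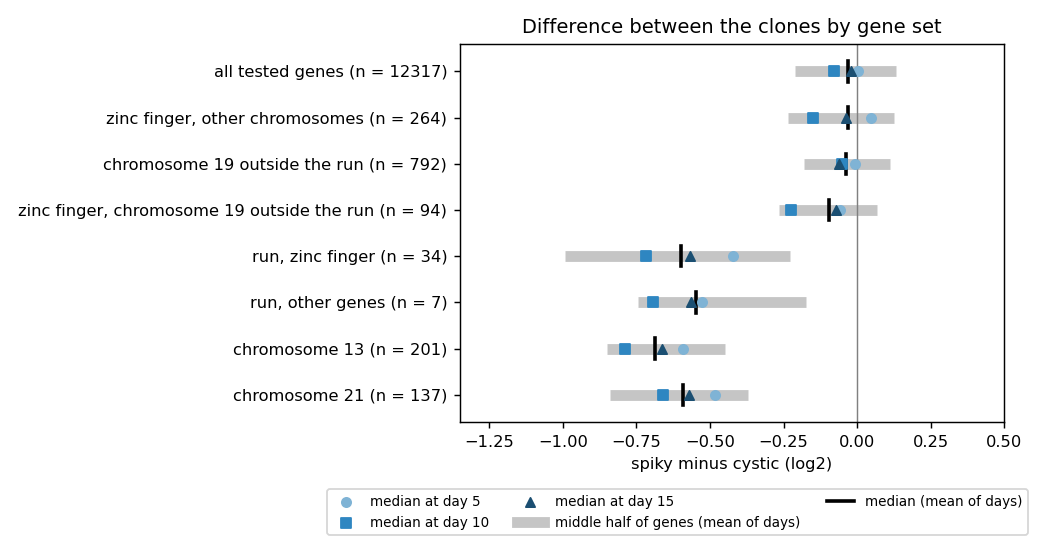
Spiky minus cystic difference in log2 signal (x axis) by gene set (y axis, with the number of genes). Grey bars span the interquartile range of genes and black ticks mark the median of the mean over days, and points give the median at each day. Run zinc finger genes (-0.60) and other run genes (-0.55) lie near chromosomes 13 and 21, and zinc finger genes elsewhere lie near 0.

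Of the run genes with other probe sets, 16 had at least 1 more with a mean of log2 5, 25 probe sets in all. Of these, 18 had the sign of the chosen one. Some of the 18, in ZNF544, ZNF814, MZF1 and CENPBD2P, reached the level through the cystic clone alone. The filter favoured a lower value in the spiky clone there, so nothing is read from this count. The 7 others belonged to 5 genes, U2AF2, EPN1, ZNF552, ZNF446 and ZBTB45, whose chosen differences lay between -0.48 and -0.03. The remaining 52 run genes with a probe set stayed below the level, 48 of them under log2 5 on every array. In 2 of them, ZNF416 (4.90 in the cystic and 3.35 in the spiky clone) and ZNF17 (4.55 and 3.46), the means differed by over 1 all the same, a choice made after seeing the values. Also below the level were the imprinted gene PEG3, the KRAB genes ZNF471 and ZNF304, the oocyte genes NLRP4 and NLRP5 and AURKC, an aurora kinase of germ cells at 4.59 in the cystic clone and 4.40 in the spiky clone. The members nearest to the level were ZSCAN22 (mean 5.05) and ZSCAN5A (5.24), and the nearest below were ZNF837 (4.97), ZNF582-DT (4.86) and ZNF71 (4.74). ZSCAN22 reached the level through the cystic clone alone.

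Over culture time the median change of the run was close to 0, and 7 single members changed. The question here was whether these genes also respond to time in collagen, in both clones together. At day 15 against day 5, 7 of the 41 members passed in limma with Benjamini-Hochberg adjustment over all 12317 genes, 17.1% against a background of 32.3%. Of these, 4 fell (background 21.9%) and 3 rose (background 10.4%). The median change of the members was -0.06 and that of all tested genes -0.11. All 7 were zinc finger genes, as were 34 of the 41 members. Without the spiky day 5 array 0 members passed, without the cystic day 5 array 1 and without the spiky day 15 array 4. With shape left out of the model 0 passed (background 11.8%). The share of all tested genes that passed also fell in each of these settings.

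ZNF274 fell by 1.10 on the log2 scale (SE 0.24, limma adjusted p = 0.00901), by 1.25 in the cystic and 0.95 in the spiky clone. In the cystic clone it ended at 4.39, under log2 5. Its other probe set, just below the level, changed by 0.19. ZNF544 fell by 0.92 (SE 0.24, limma adjusted p = 0.0191), with a change of -0.76 in the cystic and -1.07 in the spiky clone. The other bright probe sets of ZNF544 changed by 0.06 and -0.24, and the fall is thus that of the chosen probe set. ZSCAN22 fell by 0.83 (SE 0.25, limma adjusted p = 0.0322) and ZNF329 by 0.72 (SE 0.19, limma adjusted p = 0.0187). In ZSCAN22 the spiky arrays at day 10 and 15 lay under log2 5 (4.02 and 4.33), so the size of its fall is uncertain. Without the filter on dim genes the limma adjusted p of ZSCAN22 was 0.0567.

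ZNF835 rose by 0.69 (SE 0.20, limma adjusted p = 0.0281), and ZNF805, a KRAB gene, by 0.67 (SE 0.22, limma adjusted p = 0.0463). The other probe sets of ZNF805, below the level, changed by -0.31 and 0.75. ZNF552 rose by 0.64 (SE 0.21, limma adjusted p = 0.0441), while its other bright probe set changed by 0.18. With arrays centred on their medians the limma adjusted p was 0.0638 for ZNF805 and 0.0655 for ZNF552. Without the filter on dim genes it was 0.0767 and 0.0704, and with no intensity trend in the variance 0.0334 and 0.0453. Both rises thus lie close to the threshold. Over all 41 members, 19 were lower at day 15 than at day 5 in both clones (46.3%, against 47.3% of all tested genes), 10 were higher in both (24.4% against 28.2%) and 12 went opposite ways (29.3% against 24.3%). TRIM28 was at -0.40 (SE 0.17, limma adjusted p = 0.110) and did not pass. At day 10 against day 5, 0 members passed in limma, 10 had an unadjusted p under 0.05 (1658 of all 12317 genes did), and the background was 0.0162% (0.00812% in each direction). At day 15 against day 10, 3 members rose (background 8.66%), ZNF581 by 0.90, MZF1 by 0.79 and ZSCAN18 by 0.75 (limma adjusted p = 0.0101, 0.0301 and 0.0464), each after a lower mean at day 10 than at day 5. In the other direction 0 members passed (background 14%), and 8 had an unadjusted p under 0.05 in either direction (4487 of all 12317 genes did).

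**Figure D4:**
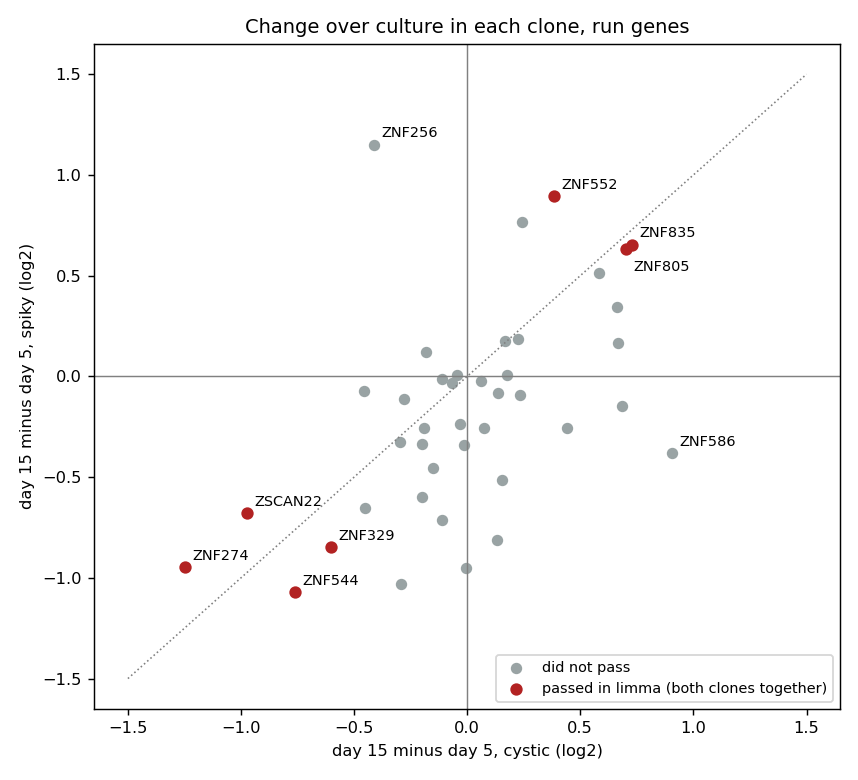
Change in log2 signal from day 5 to day 15 in the cystic clone (x axis) and in the spiky clone (y axis) for the 41 members. Red points passed the limma test of both clones together, and the dotted line marks equal change. ZNF274, ZNF544, ZNF329 and ZSCAN22 lie low in both clones, ZNF835, ZNF805 and ZNF552 high in both, and ZNF256 and ZNF586 far from the line.

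Whether the clones changed differently over time was asked with the slope per 10 days. Limma called 0 of the 41 members and 0 of all tested genes (background 0%), and 2 members had an unadjusted p under 0.05, as did 309 of the 12317 genes. ZNF256 was at 6.56, 6.45 and 6.15 in the cystic clone and 5.66, 5.78 and 6.81 in the spiky clone, so it was lower in the spiky clone at day 5 and 10 and higher at day 15. Its slope difference was 1.56 (SE 0.53, limma adjusted p = 0.999). ZNF586 was at 5.32, 5.90 and 6.22 against 5.40, 4.91 and 5.01, level at day 5 and lower in the spiky clone afterwards (slope difference -1.29, SE 0.50, limma adjusted p = 0.999).

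RNA signals were also read for the genes of proteins that KRAB zinc finger proteins work with, wherever these genes lie. Of 39 listed genes 35 were tested, and their median difference between the clones was -0.06 against -0.03 for all tested genes. Since the clone contrast chose the run, and TRIM28 is in both lists, the clone values of this list are a description too. MPHOSPH8 of the HUSH silencing complex was at -0.81, SUMO3 at -0.50 and the HP1 gene CBX5 at -0.28. MPHOSPH8 lies on chromosome 13 and SUMO3 on chromosome 21, whose medians were lower in this clone. SETDB1, the methyltransferase that TRIM28 recruits, was at -0.06. Limma called TRIM28, MPHOSPH8, SUMO3 and CBX5 lower and 0 genes of the list higher (background 7.74% and 3.65%), but 3 genes with any 1 array left out, 2 without the intensity trend and 0 with culture day left out of the model, and nothing is read from these counts. At day 15 against day 5 limma called 11 of the 35 lower and 5 higher (background 21.9% and 10.4%). Without either day 5 array fewer were called, in this list and over all tested genes. UHRF1 and DNMT1, which copy DNA methylation at replication, fell by 1.13 and 0.80, and ATF7IP, a partner of SETDB1, and TASOR of the HUSH complex rose by 1.05 and 0.74 (adjusted p from 0.000642 to 0.00324). Without the spiky day 5 array 2 of the 35 were called over time, and without the cystic day 5 array 10.

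Array medians lay between 5.18 and 5.34, and precision is limited by having 6 arrays. Of 11 colorectal epithelial markers 6 had a mean of at least log2 5, EPCAM, KRT8, KRT18, KRT19, CDH1 and VIL1, while KRT20, CDX1, CDX2, LGALS4 and CEACAM5 lay below it. Of 7 leukocyte markers with a probe set 4 reached it, all at a mean of 5.63 or less. The summed log2 signal of all 7 was 33.4 to 35.8 in the cystic clone and 29.9 to 32.7 in the spiky clone. LCP1 had the widest gap, at 6.31, 5.59 and 5.64 against 4.28, 4.32 and 4.57. PTPRC, which defines leukocytes, had a mean of 2.95 and was at 2.97, 2.82 and 2.68 against 2.77, 3.25 and 3.18. Of 8 fibroblast markers 2 reached it, with sums of 34.5 to 37.2 and 33.5 to 35.8, and of 4 endothelial markers 0, with sums of 14.9 to 17.1 and 15.3 to 17.7. The 3' over 5' signal of ACTB, a sign of RNA integrity, was 2.83, 3.18 and 3.28 (log2) in the cystic clone and 2.73, 2.74 and 3.10 in the spiky clone at day 5, 10 and 15. That of GAPDH was lower, at 0.65, 0.79 and 0.63 in the cystic clone and 0.60, 0.63 and 0.49 in the spiky clone. The part of these in the results above was not tested.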

How the data were processed

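RNA of the gel layer that held the cells was made into biotinylated cRNA, per the labels' protocols. The authors deposited log2 signals, with RMA named in the submitters' processing notes and no version given in the sources used. Gene names of probe sets came from the platform annotation and were updated by gene ID to RefSeq (GRCh38.p14), used for names and gene order; 41043 of 41097 probe sets with a single symbol matched. A gene with several probe sets took the brightest, and 12317 of 19775 genes had a mean of log2 5 or more. Signals have no read depth.

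The models were fitted with limma 3.58.1 in R 4.3.3 to all 6 arrays and all tested genes, with colony shape and day (3 levels), intensity-trended variances, two-sided tests, Benjamini-Hochberg adjustment and a threshold of 0.05. Slopes came from day as a number with its interaction with shape. Day was a block because the labels give it; deviations of same-day arrays from their clone's mean correlated at 0.608, 0.496 and 0.719 across genes. The fits were also tried on data simulated with independent noise between arrays, unlike the correlated same-day arrays here. That simulation is not evidence for the p-values above. Folds set arrays of under log2 5 to 5 and are then lower bounds.

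Named were ZNF544, the 12 lowest and 6 highest differences, the members that changed with culture day (up to 5 in each direction), genes chosen by role, genes at the borders, and of the repressor list the 2 with the smallest p in each direction; other members were named after their values were seen. The members and lists were chosen with earlier results of these data known. Zinc finger genes were those whose symbol starts with ZNF, ZSCAN, ZFP, ZIM, ZIK, ZKSCAN, ZBTB or MZF and a digit, or PEG3. Protein sequences were not used here. Alternatives covered the filter, probe sets, array scaling, the variance trend, the day block and each array left out. Figures were drawn with matplotlib 3.10.9.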

Additional observations from a re-analysis of the deposited data

How the results depend on the processing

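The median difference of the run was between -0.70 and -0.48 with any 1 array left out, but -0.45 with the mean of all probe sets per gene and -0.12 with no filter on dim genes, which adds the 52 genes below log2 5. With day in the model, leaving out either array of a day gave the same difference between the clones. For that contrast these are therefore checks by day and not by single array. Leaving out the filter also took the zinc finger median to -0.17 and that of the other members to -0.0682; the latter was -0.45 with the mean of all probe sets and -0.25 with no _x_at or _s_at probe sets, where 4 genes remained. With any 1 array left out, 11 to 17 members were called lower and 1 to 2 higher, 0 to 8 were called at day 15 against day 5, and 2 to 18 of the repressor genes. With no replicate block, culture day was left out of the model, or colony shape for day 15 against day 5. In that setting 2 members were called lower (background 0.43%), 0 higher (background 0.154%) and 0 by day (background 11.8%). Of the repressor genes, 0 were called between clones and 9 by day. Without _x_at or _s_at probe sets 0 members were called higher, 2 by day and 8 repressor genes by day. At a mean of log2 6 or more 1 member was called higher, and without the filter 4 by day. The repressor genes gave 10 calls by day with the mean of all probe sets; with no intensity trend they gave 10 by day and 2 between clones. The share called over all tested genes changed with the setting as well. Some of these settings hold fewer genes or arrays, and the cause of the changes was not tested. ZNF544 was at 0.0584 by day without _s_at probe sets. With 1 array left out ZNF835 ranged from -0.0751 to 0.0988 and ZNF135 from -0.187 to 0.556, both negative without a day 10 array, and U2AF2 turned to 0.0167 with arrays centred, 0.12 with the mean of all probe sets, 0.16 without _s_at probe sets and 0.23 without a day 15 array. Grouping zinc finger genes by protein sequence was not run. Removing ZNF8-DT or ZNF544 from the zinc finger genes, 2 alternatives chosen after seeing the data, gave -0.62 and -0.58.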
